A study of Bos taurus with 8 samples.

Results

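The genes of glycolysis and of the cellular response to low oxygen were compared between chondrocytes of the superficial zone (SZCs) and of the deep zone (DZCs) of bovine articular cartilage. They were chosen by name, as a list of 38 genes, and 37 of these were found among the 24596 genes of the count table. *EGLN1* was not found under that name and was not analysed here. Of the 37 genes, 35 passed the filter on low counts and were tested, whereas *ENO2* and *CA12* were too low to pass. The cartilage came from the knee joints of wild type calves 1 to 2 weeks of age. Slices of each zone from a given joint were pooled and digested with enzymes, and the freed cells were cultured for 3 days in medium with serum before RNA was taken, with 2 libraries per zone, labelled replicates 1 and 2. The middle zone was discarded by the authors, and no treatment or genetic change separates the libraries. The oxygen level of the culture is not given in the sources used here.

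Glycolysis splits glucose into pyruvate in the cytosol, and lactate dehydrogenase turns pyruvate into lactate, which leaves the cell through monocarboxylate transporters. Cartilage has no blood vessels, and its cells rely largely on this pathway for ATP. Hypoxia-inducible factors (HIFs) are transcription factors whose alpha subunits are marked for destruction by prolyl hydroxylases when oxygen is present. When oxygen is low they accumulate, enter the nucleus and raise the transcription of many glycolytic enzymes, of the angiogenic factor VEGFA and of carbonic anhydrase 9. The counts measure mRNA only, so the amount of HIF protein, the activity of the enzymes and the lactate made are not part of these data.

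The libraries held between 19918970 and 21890549 counts, and a level of 3 counts, used as the floor of detection, equals between 0.129 and 0.187 CPM (the usual per-library scaling of counts, here adjusted by the trimmed mean of *M* values, TMM). *COL2A1* alone took from 6.31% to 24.5% of the counts of a library. All 12 chondrocyte markers of a list of general chondrocyte genes were expressed, each at a mean of at least 96.6 CPM. All 7 superficial zone genes listed, *PRG4* among them, were called higher in SZCs. The authors had already reported each of these superficial zone genes as higher in SZCs, from the same libraries and with the same kind of test. Their calls here are therefore not an independent check of the zones. With TMM scaling, both DZC libraries lay above both SZC libraries for 9 of the 12 chondrocyte markers, against 20.5% of all tested genes. Over all 12 the median log2 fold change (SZC over DZC) was -1.24. Of the 12, *CNMD* (7.70-fold) and *MATN3* (4.13-fold) were called higher in DZCs, against 0.700% of all tested genes. The 6 endothelial markers summed to between 3.82 and 8.14 CPM per library. The 8 leukocyte markers summed to 17.9 and 29.5 CPM in SZCs and 6.66 and 13.0 CPM in DZCs. Of the 4 of them that were tested, 0 were called by edgeR's exact test, while all 4 had log2 fold changes above 0, and *CD14*, a monocyte marker, was 2.66-fold higher in SZCs at an unadjusted p of 0.00621 and an edgeR FDR of 0.142. Of 4 adipocyte markers found, *FABP4*, which encodes a fatty acid binding protein, was called higher in SZCs, at 12.2 and 9.44 CPM in SZCs and 1.18 and 1.57 CPM in DZCs. The others did not follow it. *PLIN1* had overlapping zones and a log2 fold change of 0.196, and was not called. *LEP* and *CIDEC* had at most 1 count in a library and were not tested. DZC replicate 1 stood apart in its 10 proliferation markers, which summed to 66.0 CPM there against 521 CPM in DZC replicate 2 and 305 and 353 CPM in the SZC libraries. Of 10 markers of hypertrophic chondrocytes and osteoblasts found, 6 were highest in DZC replicate 2 (*MMP13*, *IBSP*, *SP7*, *ALPL*, *COL10A1* and *SPP1*) and 4 were not (*IHH*, *PHOSPHO1*, *BGLAP* and *DMP1*). The 10 summed to 113 and 109.7 CPM in SZCs and to 35.2 and 274 CPM in DZC replicates 1 and 2, most of which was *SPP1* (osteopontin), at 108 and 102 CPM in SZCs and 18.9 and 201 CPM in DZCs. *MMP13*, a collagenase gene, had 0 and 0 counts in SZCs and 0 and 468 counts in DZCs, *ALPL*, the alkaline phosphatase gene of mineralizing cells, had 10 and 5 counts in SZCs and 1 and 445 counts in DZCs, and *COL10A1*, the collagen gene of hypertrophic cartilage, had 23 and 18 counts in SZCs and 0 and 221 counts in DZCs. *IHH*, which encodes a signal of prehypertrophic cells, was the single marker of this list called, higher in DZCs, with 13 and 5 counts in SZCs and 194 and 48 counts in DZCs.

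A single member, the carbonic anhydrase gene *CA9*, differed between the zones at a false discovery rate (FDR) below 0.05 in edgeR's exact test, whose adjusted p is given as the edgeR FDR throughout. It was 7.86-fold higher in SZCs. This is 1 of the 35 members tested, or 2.86%, close to the 2.93% of all 12857 tested genes that were called (377 genes, of which 287, or 2.23%, were higher in SZCs and 90, or 0.700%, were higher in DZCs). Of the 23 tested genes from glucose uptake to lactate, 0 were called by edgeR's exact test or by DESeq2, which called 403 of 17551 genes. The quasi-likelihood test of edgeR called 0 of 12857 genes in all, so its count of 0 here carries no information on glycolysis. Before adjustment, 1, 2 and 1 of them had a p-value below 0.05 in the exact test, DESeq2 and the quasi-likelihood test, and of all 35 members it was 3 by the exact test, against 9.09% of all tested genes. Of the 12 tested genes of oxygen sensing and its targets, 1 was called. The median log2 fold change (SZC over DZC) was -0.03 for the genes from uptake to lactate, 0.47 for those of oxygen sensing and its targets, and -0.04 for all tested genes. In bulk RNA, a smaller number of cells with a transcript and less of it per cell cannot be told apart.

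Among the members, 19 log2 fold changes were above 0 and 16 below, and this tally moved with single libraries. It was 11 and 24 without SZC replicate 1, 25 and 10 without SZC replicate 2, 28 and 7 without DZC replicate 1, and 16 and 19 without DZC replicate 2. With libraries scaled by their totals alone it was 28 and 7, because that scaling moves the median of all tested genes by 0.30 on the log2 scale. Both SZC libraries lay above both DZC libraries for 8 of the 35 members, against 21.0% of all tested genes, and both DZC libraries lay above for 4, against 20.5%. The libraries of the zones overlapped for the other 23.

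**Figure D1:**
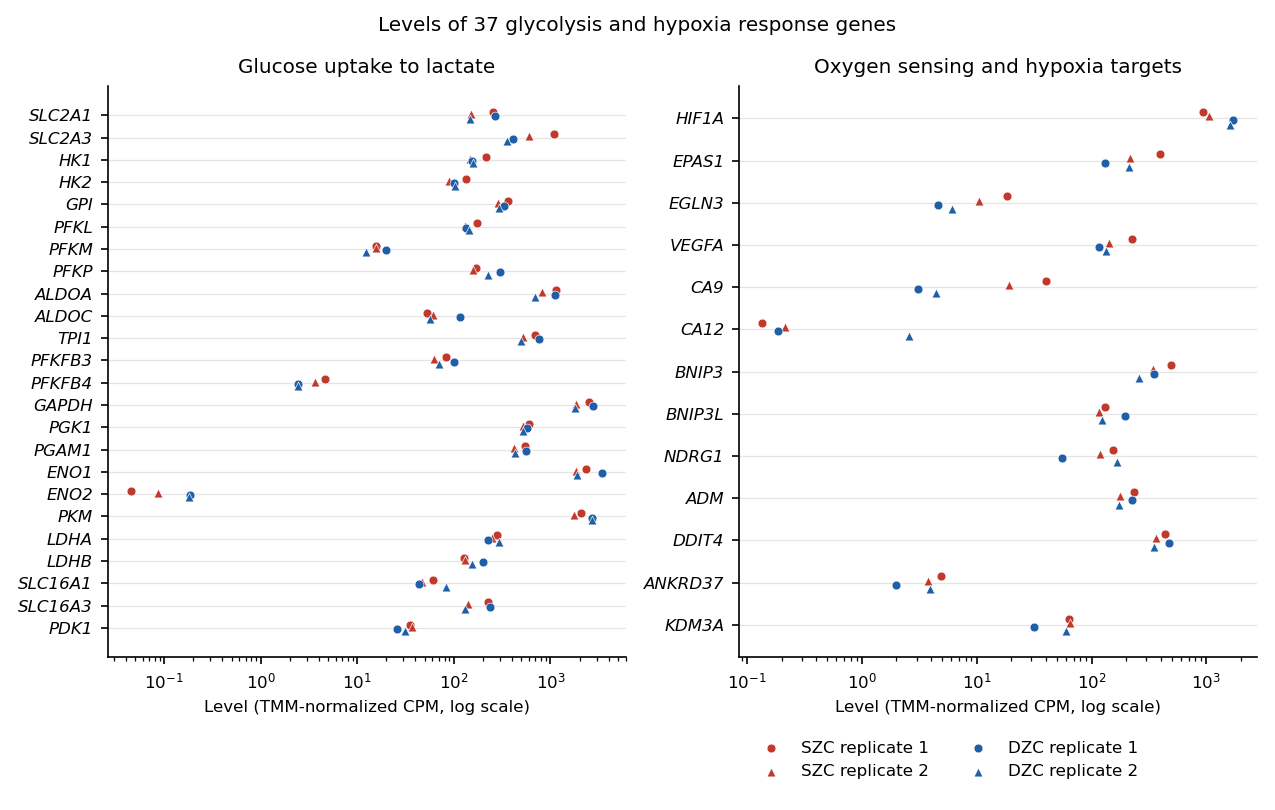
Level of each of the 37 genes in the 4 libraries, as TMM-normalized CPM on a log axis, with SZC libraries in red, DZC libraries in blue, circles for replicate 1 and triangles for replicate 2. Red and blue symbols separate widely for *CA9*, while those of *GAPDH*, *PGK1* or *ADM* are interleaved. Rows differ in transcript length, for which no correction was made, and are not to be compared.

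Glucose enters through the transporters encoded by *SLC2A1* (GLUT1), the common basal transporter, and *SLC2A3* (GLUT3), which has a high affinity for glucose. *SLC2A3* (ENSBTAG00000004556) was at 1080.1 and 602 CPM in the SZC libraries and 405 and 355 CPM in the DZC libraries. Both SZC libraries were above both DZC libraries, and SZC replicate 1 was the highest. The log2 fold change was 1.15 (standard error, SE, 0.44, 95% interval 0.28 to 2.01), a 2.21-fold difference, which did not pass at an edgeR FDR of 0.201. *SLC2A1* was at 253 and 152 CPM in the SZC libraries and 268 and 147 CPM in the DZC libraries. Its zones overlapped fully, since the replicate 1 library was the higher in each zone, and its log2 fold change was -0.03 (95% interval -0.97 to 0.90), or 0.35 with library totals.

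None of the first enzymes of the pathway passed. Hexokinase traps glucose in the cell as glucose 6-phosphate, and *HK1* was at 215 and 148 CPM in SZCs and 153 and 157 CPM in DZCs, while *HK2*, the inducible hexokinase, was at 135 and 88.5 CPM in SZCs and 101 and 102 CPM in DZCs. In each case SZC replicate 1 was the highest library and the DZC values lay within or next to the SZC range. *GPI*, which converts glucose 6-phosphate to fructose 6-phosphate, was at 363 and 286 CPM in SZCs and 331 and 291 CPM in DZCs, with overlapping zones. Its log2 fold change of 0.06 had a 95% interval of -0.66 to 0.78.

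Phosphofructokinase catalyses the committed step, and it is built from subunits of 3 genes. *PFKP*, the platelet type subunit, was at 168 and 159 CPM in the SZC libraries and 303 and 223 CPM in the DZC libraries. Both DZC libraries were above both SZC libraries, and the log2 fold change was -0.69 (SE 0.37, edgeR FDR 0.620). *PFKL*, the liver type, had a log2 fold change of 0.13 (95% interval -0.58 to 0.83) and *PFKM*, the muscle type, one of -0.03 (95% interval -0.87 to 0.81), with overlapping zones for both. The sign for *PFKM* turned to 0.34 with library totals. Differences between the subunits were not tested against each other. *PFKFB3* and *PFKFB4* encode enzymes that make fructose 2,6-bisphosphate, the strongest activator of phosphofructokinase. *PFKFB4* was low, with 101 and 85 counts in SZCs and 39 and 54 counts in DZCs, and both SZC libraries were above both DZC libraries at 4.59 and 3.66 CPM in SZCs and 2.43 and 2.42 CPM in DZCs. Its log2 fold change of 0.77 (SE 0.57, edgeR FDR 0.861) did not pass. *PFKFB3* was at 82.3 and 62.7 CPM in SZCs and 99.3 and 70.6 CPM in DZCs, with overlapping zones.

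Aldolase and triosephosphate isomerase complete its upper part. *ALDOA* was at 1154 and 823 CPM in SZCs and 1111 and 689 CPM in DZCs, and *TPI1* at 697 and 518 CPM in SZCs and 767 and 496 CPM in DZCs. For both genes the replicate 1 library was the higher in each zone, by more than the means of the zones differed. *ALDOC*, the brain type aldolase, which is also a HIF target, was at 52.8 and 60.4 CPM in SZCs and 117 and 56.4 CPM in DZCs. DZC replicate 1 alone was high, and the log2 fold change was -0.61 with all libraries, 0.01 without DZC replicate 1 and -1.03 without DZC replicate 2.

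None of the enzymes that harvest ATP passed the test. *GAPDH*, an enzyme gene that the study also used as a reference in RT-qPCR, was at 2527 and 1817 CPM in the SZC libraries and 2761 and 1789 CPM in the DZC libraries. The replicates of a zone differed by 1.39-fold in SZCs and 1.54-fold in DZCs, and the zones overlapped. Its log2 fold change was -0.07 (SE 0.44, 95% interval -0.93 to 0.80), and 0.29 with library totals. A difference between the zones was thus not detectable, and the interval leaves room for a change of up to 1.74-fold towards SZCs or a fall to 0.524 of the DZC level. *PGK1*, which makes the first ATP of the pathway, was at 607 and 514 CPM in SZCs and 572 and 518 CPM in DZCs and *PGAM1*, a phosphoglycerate mutase, at 545 and 418 CPM in SZCs and 552 and 431 CPM in DZCs. Both showed overlapping zones, and their log2 fold changes were 0.04 (95% interval -0.68 to 0.76) and -0.03 (95% interval -0.79 to 0.73). *ENO1*, the widely expressed enolase, was highest in DZC replicate 1, at 2322 and 1821 CPM in SZCs and 3429.6 and 1902 CPM in DZCs. *ENO2*, the neuronal enolase, had 1 and 2 counts in SZCs and 3 and 4 counts in DZCs and was not tested. *PKM*, which encodes muscle type pyruvate kinase and makes the last ATP, was at 2095 and 1750.0 CPM in the SZC libraries and 2691 and 2720.3 CPM in the DZC libraries. Both DZC libraries were above both SZC libraries and agreed closely with each other, but the log2 fold change of -0.49 (SE 0.39, edgeR FDR 0.873) did not pass. In all, 9 of the 14 tested enzyme genes from hexokinase to pyruvate kinase differed by less than 1.1-fold between the zones, the exceptions being *HK1*, *PFKP*, *ALDOC*, *ENO1* and *PKM*. That count rests on TMM and on all 4 libraries, since it was 1 of 14 with library totals, 6 and 1 without SZC replicates 1 and 2, and 5 and 2 without DZC replicates 1 and 2.

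Counts of the enzymes from hexokinase to pyruvate kinase and of both lactate dehydrogenases were also summed within each library, a measure that needs no TMM scaling. These 17 genes took 1.27% and 1.01% of all counts in the SZC libraries, and 0.989% and 1.08% in those of DZCs. The zones overlapped. Counting error was small beside these differences, with an exact binomial 95% interval of 1.26% to 1.27% for SZC replicate 1, which covers counting error only. With *COL2A1* taken out of the total the shares became 1.37%, 1.08%, 1.31% and 1.24% in the same order, and the difference between the zone means changed sign, from 0.106 to -0.0508 percentage points. It was -0.0208 without SZC replicate 1 and 0.233 without SZC replicate 2. The replicates of SZCs differed by more than the value with all libraries.

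**Figure D2:**
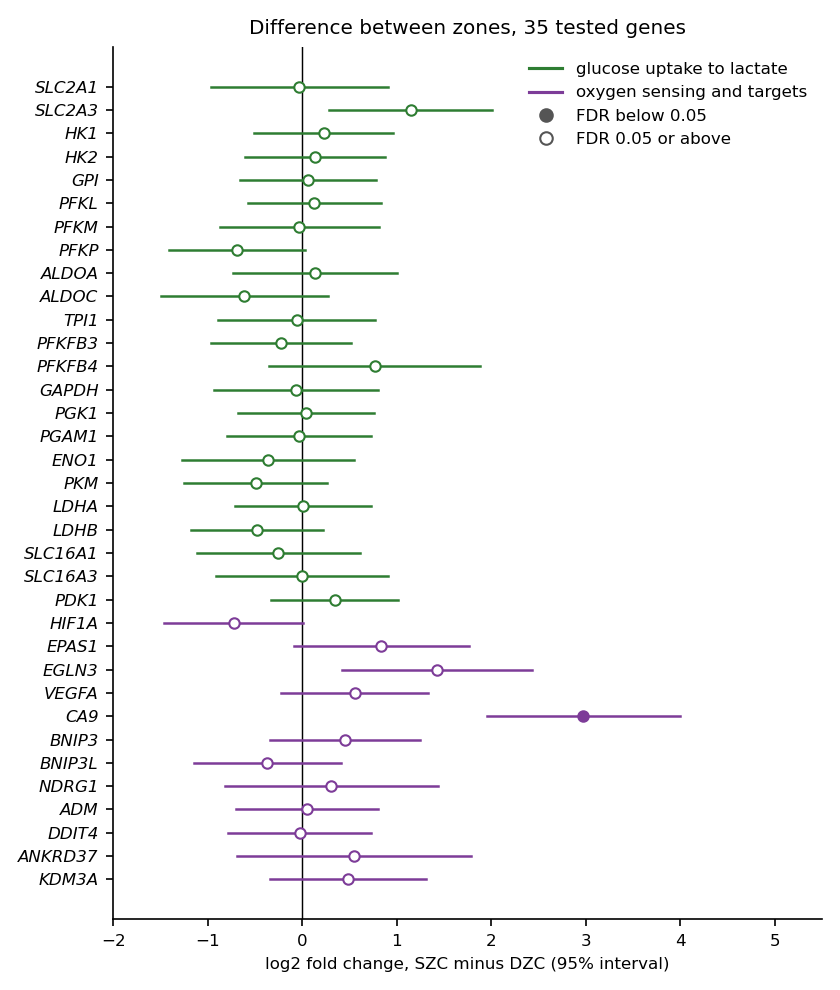
log2 fold change of SZCs over DZCs for the 35 tested genes, with 95% intervals from the negative binomial model, in green for genes from glucose uptake to lactate and in purple for oxygen sensing and its targets. The filled symbol marks the gene called at an FDR below 0.05, *CA9*, at a log2 fold change of 2.97, and the intervals of 22 of the 23 green genes and 10 of the 12 purple genes include 0.

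At the branch to lactate, *LDHA* encodes the subunit that favours making lactate and *LDHB* the subunit that favours using it. *LDHA* was at 277 and 246 CPM in SZCs and 225 and 295 CPM in DZCs, with overlapping zones and a log2 fold change of 0.01 (95% interval -0.71 to 0.73). *LDHB* was at 127 and 129 CPM in SZCs and 202 and 156 CPM in DZCs, with both DZC libraries above both SZC libraries and a log2 fold change of -0.48 (SE 0.36, edgeR FDR 0.854). Lactate leaves through the transporters MCT4, encoded by *SLC16A3*, and MCT1, encoded by *SLC16A1*. *SLC16A3* was at 224 and 141 CPM in the SZC libraries and 235 and 131 CPM in the DZC libraries. The replicate 1 libraries of the zones were alike and so were the replicate 2 libraries, so that its zone means differed by less than any pair of replicates. *SLC16A1* was at 60.4 and 46.6 CPM in the SZC libraries and 43.9 and 83.5 CPM in the DZC libraries, where the DZC libraries held both the lowest and the highest value. *PDK1*, a kinase that inhibits pyruvate dehydrogenase, the mitochondrial enzyme that turns pyruvate into acetyl-CoA, and a classical HIF target, was at 35.5 and 37.1 CPM in SZCs and 26.0 and 31.2 CPM in DZCs. Both SZC libraries were above both DZC libraries by a small margin, with a log2 fold change of 0.34 (SE 0.34, edgeR FDR 0.964).

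The genes for the HIF alpha subunits had log2 fold changes of opposite sign, neither of which passed. *HIF1A* (ENSBTAG00000020935), the subunit tied to glycolytic genes, was at 938 and 1064 CPM in the SZC libraries and 1720.5 and 1593 CPM in the DZC libraries. The replicates agreed closely and both DZC libraries were above both SZC libraries. The log2 fold change was -0.73 (SE 0.38, 95% interval -1.47 to 0.01, edgeR FDR 0.581), and it ranged from -0.82 to -0.64 with each library left out. *EPAS1* (ENSBTAG00000003711), which encodes HIF-2 alpha, was at 393 and 218 CPM in the SZC libraries and 130.3 and 212 CPM in the DZC libraries. SZC replicate 1 was the highest and DZC replicate 1 the lowest, while the replicate 2 libraries of the zones were nearly equal. Its log2 fold change was 0.84 (SE 0.47, edgeR FDR 0.678), and it fell to 0.35 without SZC replicate 1. *EGLN3* (ENSBTAG00000008172), a prolyl hydroxylase gene that HIF itself induces, was at 18.3 and 10.4 CPM in the SZC libraries and 4.60 and 6.05 CPM in the DZC libraries. Both SZC libraries were above both DZC libraries. The log2 fold change of 1.42 (SE 0.51, 95% interval 0.42 to 2.43), a 2.68-fold difference, did not pass, with an edgeR FDR of 0.151.

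*CA9* (ENSBTAG00000011420) encodes a carbonic anhydrase on the cell surface that helps to carry away acid, and it is one of the most widely used HIF target genes. It had 883 and 443 counts in SZCs and 50 and 98 counts in DZCs, or 40.1 and 19.1 CPM in SZCs and 3.11 and 4.39 CPM in DZCs. Every SZC library was well above every DZC library, and SZC replicate 1 was 2.10-fold above SZC replicate 2. On average it reached 29.6 ± 14.9 CPM in SZCs against 3.75 ± 0.907 CPM in DZCs (mean ± SD, n = 2 each). The log2 fold change was 2.97 (SE 0.52, edgeR FDR 2.11e-05), a 7.86-fold difference with a 95% interval from 3.86 to 16.0. DESeq2 gave an FDR of 2.08e-06, but the quasi-likelihood test of edgeR gave 0.162 and called 0 genes in all, with 1126 at an unadjusted p-value below 0.05. Without SZC replicate 1 the log2 fold change was 2.34 and the FDR 0.342 (edgeR's exact test), and with any other library left out the gene passed. A long non-coding RNA gene overlaps *CA9* in the RefSeq annotation, and these counts do not separate strands. *CA12*, another carbonic anhydrase gene of the cell surface, had 3 and 5 counts in SZCs and 3 and 57 counts in DZCs. It was near the floor of 3 counts in 3 libraries, clear only in DZC replicate 2, and was not tested. The 6 hypertrophic and osteoblast markers named above, of 10, were likewise highest in DZC replicate 2, and their part in the *CA12* value was not tested.

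No other HIF target of the list passed. *VEGFA*, the angiogenic factor, was at 224 and 142 CPM in the SZC libraries and 116 and 134 CPM in the DZC libraries. Both SZC libraries were above both DZC libraries, although SZC replicate 2 exceeded DZC replicate 2 only slightly, and the log2 fold change was 0.55 (SE 0.40, edgeR FDR 0.839). *BNIP3* and *BNIP3L* encode mitochondrial receptors that mark mitochondria for removal. *BNIP3* was at 493 and 343 CPM in SZCs and 349 and 261 CPM in DZCs and *BNIP3L* at 132 and 117 CPM in SZCs and 197 and 124 CPM in DZCs. Their log2 fold changes of 0.45 and -0.37 had opposite signs, and the zones overlapped for each. *ADM*, which encodes the vasodilator peptide adrenomedullin, was at 236 and 177 CPM in SZCs and 227 and 172 CPM in DZCs, and *DDIT4* (REDD1), an inhibitor of mTORC1, was at 438 and 363 CPM in SZCs and 468 and 347 CPM in DZCs. In both genes the zones overlapped and the log2 fold changes were 0.05 (95% interval -0.70 to 0.80) and -0.03 (95% interval -0.78 to 0.73).

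*NDRG1*, *KDM3A* and *ANKRD37* were each lowest in DZC replicate 1. *NDRG1*, a stress-induced gene long used as a marker of hypoxia, was at 155 and 119.6 CPM in the SZC libraries and 55.4 and 167 CPM in the DZC libraries. DZC replicate 2 was the highest library and DZC replicate 1 the lowest. *KDM3A*, which encodes a histone demethylase that needs oxygen, was at 64.1 and 64.9 CPM in SZCs and 31.9 and 60.2 CPM in DZCs, and *ANKRD37*, a small ankyrin repeat gene, at 4.91 and 3.75 CPM in SZCs and 1.99 and 3.90 CPM in DZCs. The other 3 libraries lay closer to each other than to DZC replicate 1. Without that library the log2 fold change went from 0.31 to -0.28 for *NDRG1*, from 0.49 to 0.10 for *KDM3A* and from 0.55 to 0.15 for *ANKRD37*. Without DZC replicate 2 they were 1.32, 1.03 and 1.13. The proliferation markers were low in DZC replicate 1, and 6 of the 10 hypertrophic and osteoblast markers were highest in DZC replicate 2. The part of either in these values was not tested.

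Related genes were also compared as ratios within a library, which need no scaling between libraries. For 8 pairs, the log2 ratio of counts was tested between the zones by an exact two-sided permutation test, whose smallest p with 2 libraries against 2 is 0.333. The Benjamini–Hochberg adjusted p was 0.381 for the 7 pairs whose zones did not overlap and 1 for *SLC16A3*/*SLC16A1*, so no pair could pass. The ratio of *SLC2A3* to *SLC2A1* was 2.09 and 1.99 in SZCs and 0.60 and 1.27 in DZCs, a difference of 1.1 towards GLUT3 in SZCs. It ran from 0.76 to 1.44 with each library left out. For *EPAS1* to *HIF1A* the ratio was -1.25 and -2.29 in SZCs and -3.72 and -2.91 in DZCs. Both SZC libraries were thus shifted towards *EPAS1*, by 1.55 on average, although the ratio of each zone also differed between its replicates.

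The log2 ratio of *PFKFB3* to *PFKFB4* was 4.17 and 4.10 in SZCs and 5.35 and 4.87 in DZCs, which was lower in SZCs by 0.98. *LDHA* to *LDHB* stood at 1.12 and 0.93 in SZCs and 0.15 and 0.92 in DZCs. Only DZC replicate 1 departed from the rest for this pair, and DZC replicate 2 lay just under SZC replicate 2. The ratio of *HK2* to *HK1* was almost constant, at -0.68 and -0.74 in SZCs and -0.60 and -0.62 in DZCs. *ALDOC* to *ALDOA* gave -4.45 and -3.77 in SZCs and -3.25 and -3.61 in DZCs, with SZC replicate 1 the lowest.

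**Figure D3:**
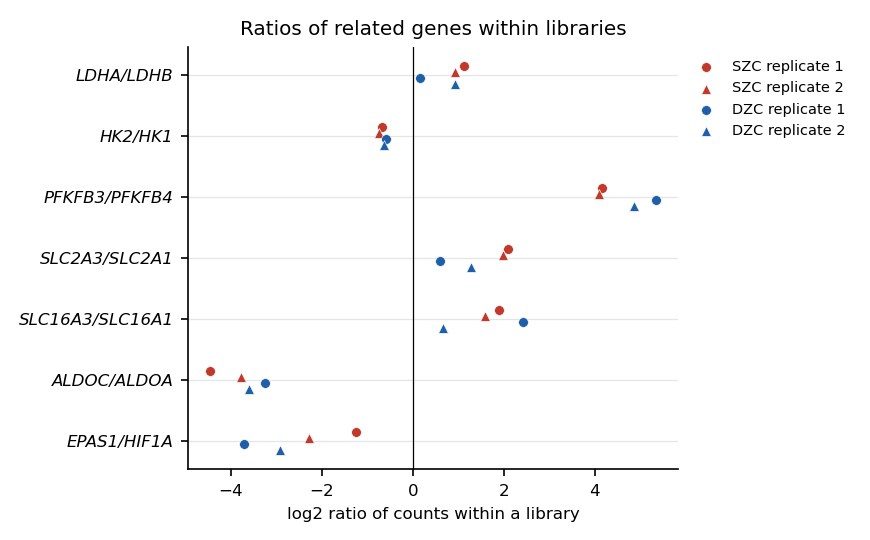
log2 ratio of counts within each library for 7 pairs of related genes (*ENO2*/*ENO1* is left out because *ENO2* had at most 4 counts), with SZC libraries in red, DZC libraries in blue, circles for replicate 1 and triangles for replicate 2. For *SLC2A3*/*SLC2A1* and *EPAS1*/*HIF1A* both red symbols lie to the right of both blue symbols, and for *HK2*/*HK1* all 4 nearly coincide. Transcript length enters each ratio equally in all libraries, so only shifts between libraries can be read.

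With TMM scaling, part of the spread among the members followed the replicate number rather than the zone. The TMM factor was 0.735 for DZC replicate 1 and 1.08 for DZC replicate 2, so the direction among DZCs depends in part on it. As a share of all counts, the 17 summed enzyme genes were lower in DZC replicate 1 (0.989%) than in DZC replicate 2 (1.08%). With *COL2A1* taken out of the total they were higher there (1.31% against 1.24%). In both zones, replicate 1 lay above replicate 2 for 18 of the 35 members, or 51.4%, against 31.8% of all tested genes, and replicate 2 lay above replicate 1 in both zones for 2 members, *PDK1* and *KDM3A*, against 32.8% of all tested genes. From glucose uptake to lactate it was 14 of 23 genes. *SLC2A1* was 1.67-fold higher in replicate 1 among SZCs and 1.83-fold higher among DZCs. For *SLC16A3* these ratios were 1.59 and 1.78, for *ALDOA* 1.40 and 1.61, and for *ENO1* 1.28 and 1.80. At these TMM-scaled levels, *SLC2A1*, *SLC16A3* and *ALDOA* thus differed more between the replicates of either zone than between the zones. *ENO1* did so among DZCs only.

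Of the 12 genes of oxygen sensing and its targets, 4 lay above in replicate 1 of both zones (33.3%), close to the 31.8% of all tested genes. *EPAS1*, *EGLN3*, *VEGFA*, *CA9*, *NDRG1* and *ANKRD37* were higher in replicate 1 among SZCs and lower in replicate 1 among DZCs. Of 7 fibroblast and dedifferentiation markers, 6 were higher in replicate 2 of both zones, and their sum was 16517 and 24884 CPM in SZC replicates 1 and 2 and 3394 and 13822 CPM in DZC replicates 1 and 2. Of the 10 proliferation markers, 8 were higher in replicate 2 of both zones. Over all tested genes, 32.8% were higher in replicate 2 of both zones. The part of either marker group in the replicate difference was not tested, and no source used here says what same-numbered libraries share.

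**Figure D4:**
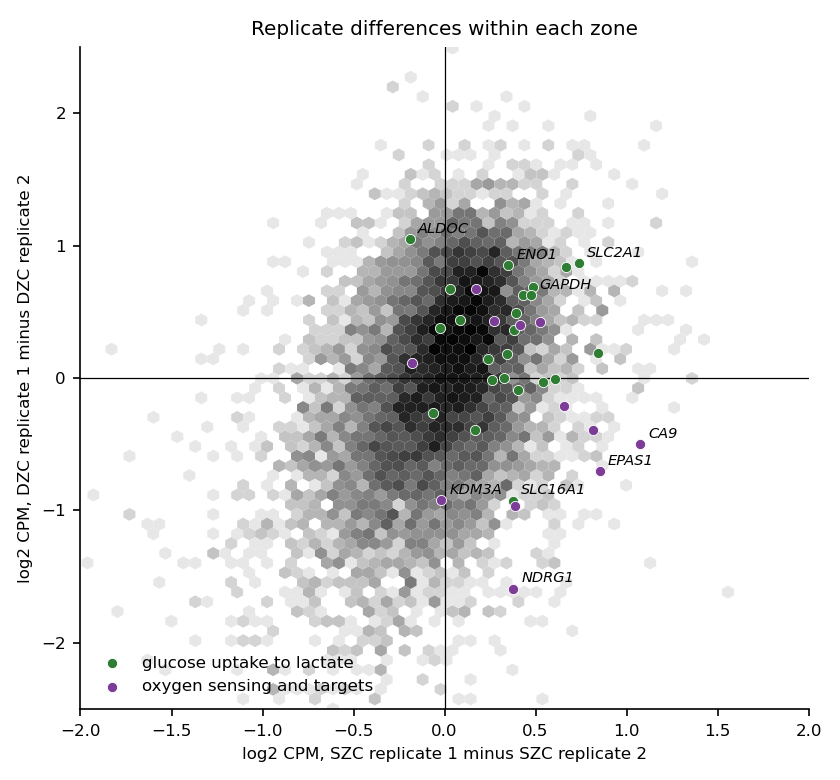
Difference in log2 CPM between replicate 1 and replicate 2, among SZCs on the horizontal axis and among DZCs on the vertical axis, for the 35 tested members over all tested genes with counts in every library (grey, darker where more genes fall, on a log scale, with genes beyond the axes left out). Of the 23 genes from glucose uptake to lactate (green), 14 lie in the upper right, with *SLC2A1* at 0.74 and 0.87, while *CA9*, *EPAS1* and *NDRG1* (purple) lie in the lower right.

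Beyond the members, 2 further lists were counted in the same test. Of 54 tested genes of glucose and glycogen metabolism, 3 were called (5.56%, against 2.93% of all tested genes), 2 higher in SZCs and 1 higher in DZCs. Their median log2 fold change was -0.12, against -0.04 for all tested genes. *PDK4* (ENSBTAG00000014069), a relative of *PDK1* that responds to fasting and fatty acids, had 222 and 162 counts in SZCs and 7 and 18 counts in DZCs. It was 13.4-fold higher in SZCs, with a log2 fold change of 3.74 (SE 0.65, edgeR FDR 1.17e-05). *GYS1*, the glycogen synthase of most tissues, was at 78.1 and 54.5 CPM in SZCs and 16.0 and 29.5 CPM in DZCs, for a log2 fold change of 1.54 (SE 0.44, edgeR FDR 0.0281).

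*HKDC1*, a hexokinase relative, had 0 and 3 counts in SZCs and 41 and 23 counts in DZCs. Its 3 counts in SZCs against 64 in DZCs give a ratio of 25.1 for DZCs over SZCs. The exact 95% interval for counting error ran from 8.22 to 125, and the edgeR FDR was 0.00907. The log2 fold change was -4.64 with all libraries and ranged from -8.17 to -3.73 with each library left out. *HKDC1* overlaps *HK1* in the RefSeq annotation, so reads of the 2 neighbours may not have been fully separated. Of the genes in this list with a mean of at least 5 CPM, the largest differences after *GYS1* were those of *PC*, the pyruvate carboxylase gene, with a log2 fold change of -0.88 (edgeR FDR 0.361), and of *PYGL*, a glycogen phosphorylase gene, with 0.74 (edgeR FDR 0.576), neither of which passed.

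Of 63 tested genes from a wider list of hypoxia response genes, 5 were called (7.94%) by edgeR's exact test. All were higher in SZCs, where 2.23% of all tested genes were called in that direction. DESeq2 called 7 of 68, with *IGFBP5* and *TMEM45A* added, and 403 of 17551 genes in all. *TMEM45A* was higher in DZCs, with a log2 fold change of -1.09 (edgeR FDR 0.0754). The median log2 fold change of the 63 genes was 0.09, with 36 above 0 and 27 below. *PGF* (ENSBTAG00000013688), which encodes placental growth factor, a relative of VEGFA, had 480 and 223 counts in SZCs and 7 and 5 counts in DZCs. Its log2 fold change was 5.58 (SE 0.74, edgeR FDR 3.23e-09), and ranged from 4.86 to 6.10 with each library left out. *ANGPTL4*, which encodes a secreted inhibitor of lipoprotein lipase, had 288 and 233 counts in SZCs and 27 and 71 counts in DZCs. It was 4.71-fold higher in SZCs (edgeR FDR 0.00704).

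*CP*, the gene of the copper carrier ceruloplasmin, was at 74.8 and 102 CPM in SZCs and 32.2 and 35.3 CPM in DZCs, a 2.61-fold difference (edgeR FDR 0.00741). *TGFB3*, a TGF-β ligand, was 2.29-fold higher (edgeR FDR 0.0355), and *DDIT4L*, a relative of *DDIT4*, had 118 and 83 counts in SZCs and 3 and 21 counts in DZCs (edgeR FDR 0.0401). Several of these genes also answer to signals other than oxygen, and the list was chosen with earlier results of these data known. *IGFBP5*, which encodes an IGF binding protein, had a large log2 fold change of 2.58 but differed between the DZC libraries. It was at 33.9 and 16.8 CPM in SZCs and 1.37 and 7.04 CPM in DZCs, and did not pass (edgeR FDR 0.0734). With DESeq2 and with the other dispersion estimate it passed. Of the 9 called genes in the 3 lists, *CA9*, *PDK4*, *PGF*, *ANGPTL4* and *CP* passed also with the replicate number as a block in the quasi-likelihood test (347 genes, or 2.70%, in all), and only *PGF* passed with each library left out in turn. *TGFB3* passed in 4 of the 8 other settings of test, filter, scaling and dispersion, also failing without a filter (edgeR FDR 0.0531) and with the other dispersion estimate (edgeR FDR 0.0726). *DDIT4L* and *GYS1* passed in 5 of the 8, also failing with library totals (edgeR FDR 0.143 and 0.113), and *HKDC1* passed in 6.

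**Figure D5:**
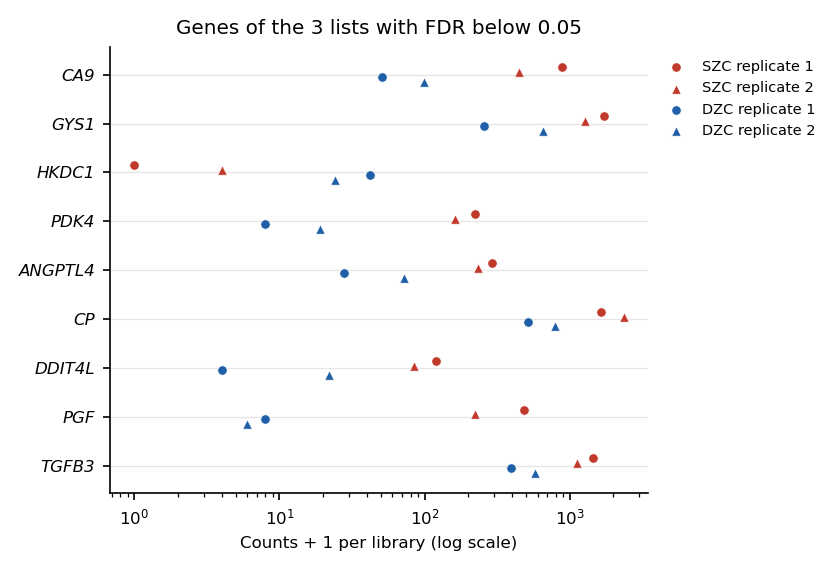
Counts plus 1 in each library, on a log axis, for the 9 genes of the 3 lists with an FDR below 0.05, with SZC libraries in red, DZC libraries in blue, circles for replicate 1 and triangles for replicate 2. All are higher in both SZC libraries except *HKDC1*, which had 0 and 3 counts in SZCs, and the DZC libraries differ from each other most for *DDIT4L*.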

How the data were processed

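RNA-Seq libraries of SZCs and DZCs, 2 per zone, were analysed, while the ATAC-Seq samples were not used here. The authors aligned reads with STAR 2.5.2b to Ensembl build UMD 3.1 and deposited raw counts per gene for an unstranded library. The treatment of reads that map to several places is not given in the sources used here, which bears on enzymes with near-identical copies, such as *GAPDH*. Their table of fold changes and FDR values served only to fill blank gene names.

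Counts were compared with edgeR 4.0.16 (R 4.3.3), using, as the authors did, its exact test, here with the default filter and TMM, and adjusting by Benjamini–Hochberg over 12857 genes with a threshold of 0.05. Standard errors come from its negative binomial fit. The p-values of the exact test set the zone difference against a dispersion per gene. This is estimated from the duplicate samples of each zone and moderated across genes. The authors call the duplicates biological samples, and whether they came from different calves is not given in the sources used here. Alternatives were the quasi-likelihood test with and without a replicate block, DESeq2 1.42.0, other filters, scalings and dispersions, and each library left out. Members and lists were chosen with earlier results of these data known. Named are all members, every called gene of the 2 further lists, and the 3 with the largest change at a mean of at least 5 CPM. The fits were tested on simulated data. As a check for duplicated libraries only, the counts of a zone's replicates were compared, and gave a chi-square per degree of freedom of 61.9 (SZCs) and 302.5 (DZCs). Overlapping neighbours were read from RefSeq (ARS-UCD2.0), where 11 of 37 members overlap another gene. No sequence was used, and coordinates served only to find these overlaps.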

Additional observations from a re-analysis of the deposited data

How the results depend on the processing

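Fitted with no replicate block, edgeR's quasi-likelihood test found 0 genes (0 higher in SZCs, 0 higher in DZCs), and so 0 members and 0 of either further list, with 1126 genes and 3 members at an unadjusted p-value below 0.05. Blocked on replicate number it called 347 genes, 1 member (*CA9*), 1 gene of glucose metabolism and 3 of the wider hypoxia list. The numbers are not known to mark a shared joint. The deviations of same-numbered libraries had a correlation of 0.420 across genes, and with 2 pairs the block is given only as a hint. *CA9* passed under 7 of the 8 alternatives to the test, filter, scaling and dispersion, with log2 fold changes from 2.88 to 3.23 and FDR values from 2.08e-06 to 0.162. No other member passed under any of these 8. Scaling by totals alone left 44 genes called higher in DZCs, from 90, so that 86.7% of calls were higher in SZCs, against 76.1% with TMM. The log2 fold changes of 9 uncalled members then changed sign, namely *SLC2A1* (0.35), *PFKM* (0.34), *TPI1* (0.30), *PFKFB3* (0.12), *GAPDH* (0.29), *PGAM1* (0.30), *ENO1* (0.0181), *SLC16A3* (0.38), *DDIT4* (0.32). Near 0, *PFKM* (0.00643) and *SLC16A3* (0.0182) also changed sign with the replicate block, and *SLC16A3* without a filter (0.00413) and with more than 1 CPM in 2 libraries (0.00289).

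Leaving out 1 library leaves a zone with a lone library that is assumed to vary like the remaining pair. The cause of the moves below was not tested. Counts of members and lists called were highest where those of all genes were highest, and are not read as a result about them. That was without DZC replicate 2, where 13144 genes and 35 members were tested. Of the further lists, 56 genes of glucose metabolism and 63 of the wider hypoxia list were tested there. Calls ranged from 58 (without SZC replicate 1) to 2725 (without DZC replicate 2), those higher in SZCs from 52 to 1607 and those higher in DZCs from 6 to 1118. Members called ranged from 0 to 8, 0 to 6 of them higher in SZCs and 0 to 2 higher in DZCs. The 8, without DZC replicate 2, were *CA9*, *SLC2A3*, *EPAS1*, *EGLN3*, *KDM3A*, *NDRG1*, *PFKP* and *ALDOC*. Without DZC replicate 1, *CA12* entered the test through its 57 counts in DZC replicate 2 alone, so its call there carries no information. The further lists ranged from 0 to 8 (glucose metabolism) and from 1 to 18 (wider hypoxia list). The SZC minus DZC difference of the *SLC16A3*/*SLC16A1* ratio ranged from -0.67 to 1.09. Uncalled members whose log2 fold change crossed 0 were *SLC2A1* (-0.45 to 0.47), *HK1* (-0.0732 to 0.47), *HK2* (-0.20 to 0.40), *GPI* (-0.12 to 0.22), *PFKL* (-0.0903 to 0.32), *PFKM* (-0.31 to 0.35), *ALDOA* (-0.15 to 0.53), *ALDOC* (-1.03 to 0.00924), *TPI1* (-0.32 to 0.30), *PFKFB3* (-0.44 to 0.0424), *GAPDH* (-0.33 to 0.28), *PGK1* (-0.0889 to 0.15), *PGAM1* (-0.24 to 0.16), *ENO1* (-0.71 to 0.13), *LDHA* (-0.17 to 0.24), *SLC16A1* (-0.64 to 0.30), *SLC16A3* (-0.38 to 0.48), *BNIP3L* (-0.65 to 0.0118), *NDRG1* (-0.28 to 1.32), *ADM* (-0.18 to 0.27), *DDIT4* (-0.21 to 0.21). With 2 libraries per zone, the standard errors of the members, from 0.34 to 0.63, limit what can be called.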

Other observations

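Transcripts of the mitochondrial genome, which encode subunits of the respiratory chain, were found by name for 4 genes, and all 4 were higher in both SZC libraries than in either DZC library. *COX1* was at 7856 and 5749.8 CPM in SZCs and 4699 and 3815 CPM in DZCs, *COX3* at 3319.9 and 2430.2 CPM in SZCs and 2175 and 1709 CPM in DZCs, *ND1* at 1643 and 1412 CPM in SZCs and 712 and 1048 CPM in DZCs and *ND5* at 1915 and 1739 CPM in SZCs and 693 and 1344 CPM in DZCs. Their log2 fold changes, from 0.57 to 0.84, did not pass in edgeR's exact test (FDR from 0.575 to 0.851), and 21.0% of all tested genes were likewise higher in both SZC libraries.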
